A study of Mus musculus with 9 samples.

Results

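Receptors, a ligand and complement proteins that take part in the removal of dying cells were followed on arrays of cultured mouse bone marrow-derived macrophages. They were chosen by UniGene cluster number, an older scheme that groups transcripts of one gene. The list held 7 numbers, and the value table held 5 of them among its 17810 clusters, those of Mertk, Axl, Gas6, C1qb and C3. The numbers listed for C1qa and C1qc had no row, so these genes were not analysed here. The gene names came with the list, which gave Mm.239655's gene as Mertk, Mm.4128's as Axl, Mm.3982's as Gas6, Mm.2570's as C1qb and Mm.19131's as C3. The gene table used here paired 0 of the 7 numbers with a symbol, so the names were not checked against it.

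Marrow cells from the leg bones of C57BL/6 mice were cultured with macrophage colony-stimulating factor (M-CSF, the cytokine that drives macrophage growth and survival) at 30 ng/ml for 7 days in all. Stimulation began on day 4 and lasted 3 days. One group was given the synthetic glucocorticoid dexamethasone at 5e-07 M together with interleukin 4 (IL-4), a cytokine of type 2 immunity, at 10 ng/ml (dexa+IL4). Another was given conditioned medium of the mouse melanoma line B16F1 (cmB16F1). The last was given this medium, dexamethasone and IL-4 together (cmB16F1+dexa+IL4, called the combination). Each group had 3 one-colour Affymetrix arrays, and all 9 arrays carried RNA of cells grown with M-CSF. No array of cells in plain medium was used here, so no difference is against unstimulated cells. The labels do not say whether arrays of a group came from separate animals or cultures, so p-values measure the spread between these samples, which may be technical. Marker genes of macrophages and of other marrow cells, and further genes of the pathway, were not analysed here because their cluster numbers are unnamed.

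Macrophages clear apoptotic cells before these break open. Mertk and Axl are receptor tyrosine kinases of one family that do not touch the dying cell themselves. They bind the bridging protein Gas6, which attaches to phosphatidylserine exposed on the dying cell. C1q is the recognition part of the classical complement pathway and is built from A, B and C chains, of which C1qb encodes the B chain. C3 is the central complement protein, whose fragments coat targets for uptake by complement receptors. In many settings Mertk is the receptor of resting and glucocorticoid-treated macrophages, while Axl is linked to inflammatory stimulation.

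The genes for the 3 C1q chains lie next to each other on chromosome 4 in the RefSeq annotation, in the order C1qb, C1qc, C1qa, with no other annotated gene starting between them. Upstream sequence is shown for Mertk and Axl, which moved in opposite directions in every comparison, and for C1qb, the member with the most motif matches. Each is the 250 bases before the gene's annotated start, 5' to 3' on the gene's own strand, from RefSeq on GRCm38.p6. Capitals mark matches, on either strand, to a PU.1 core (GAGGAA), the letters AGAACA of a glucocorticoid receptor element, or a STAT-type motif (TTC and GAA with 3 or 4 bases between them).
Mertk, chr2:128698665-128698914, plus strand: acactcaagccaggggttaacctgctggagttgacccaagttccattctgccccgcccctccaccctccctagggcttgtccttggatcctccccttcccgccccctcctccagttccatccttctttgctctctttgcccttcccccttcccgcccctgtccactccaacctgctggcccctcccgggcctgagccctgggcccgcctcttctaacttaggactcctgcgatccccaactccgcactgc
Axl, chr7:25788734-25788983, minus strand: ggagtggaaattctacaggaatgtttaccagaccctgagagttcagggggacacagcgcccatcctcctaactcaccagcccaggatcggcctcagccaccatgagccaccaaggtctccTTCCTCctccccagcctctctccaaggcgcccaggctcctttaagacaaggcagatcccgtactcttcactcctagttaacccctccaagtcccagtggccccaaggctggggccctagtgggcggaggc
C1qb, chr4:136886201-136886450, minus strand: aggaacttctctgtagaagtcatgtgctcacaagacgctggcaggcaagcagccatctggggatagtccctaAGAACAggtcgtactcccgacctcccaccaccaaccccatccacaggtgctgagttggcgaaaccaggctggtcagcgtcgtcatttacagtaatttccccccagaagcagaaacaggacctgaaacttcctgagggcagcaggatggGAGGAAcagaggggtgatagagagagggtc

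The Axl window held 1 match, a PU.1 core on the opposite strand whose first printed base lies 130 bases before the start. The C1qb window held 2, AGAACA at 178 bases and a PU.1 core at 30 bases before the start. No motif overlapped another. Of 32851 mouse windows of the same length, 23.3% held the PU.1 core, 16.1% AGAACA, 7.0% the STAT-type motif with 3 bases between and 5.9% that with 4. The windows of Mertk, Gas6 and C3 held 0 matches, which says only that these letters are not in these 250 bases. A match describes the letters and is not a binding site.

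Values are log2 probe-set values, so 1 unit is a 2-fold difference. They describe each probe set across arrays and do not rank one gene's level against another's. Bacterial poly-A control sets, which match no mouse transcript, ranged from 6.09 to 7.00 and mark the low end of the scale, and the highest value of any array was 14.23. Array medians over clusters lay between 7.20 and 7.25. Spiked hybridization controls were brighter in the combination, at 10.39 ± 0.14 (SD, n = 3), than in dexa+IL4 at 10.14 ± 0.10 and cmB16F1 at 10.18 ± 0.14. When arrays were scaled to those controls, the median difference over all clusters was -0.26 for the combination minus dexa+IL4, -0.20 for the combination minus cmB16F1 and 0.06 for dexa+IL4 minus cmB16F1. Groups were compared with limma in one model of all 9 arrays, and adjusted p-values are Benjamini-Hochberg values over all 17829 tested features, called below 0.05.

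**Figure D1:**
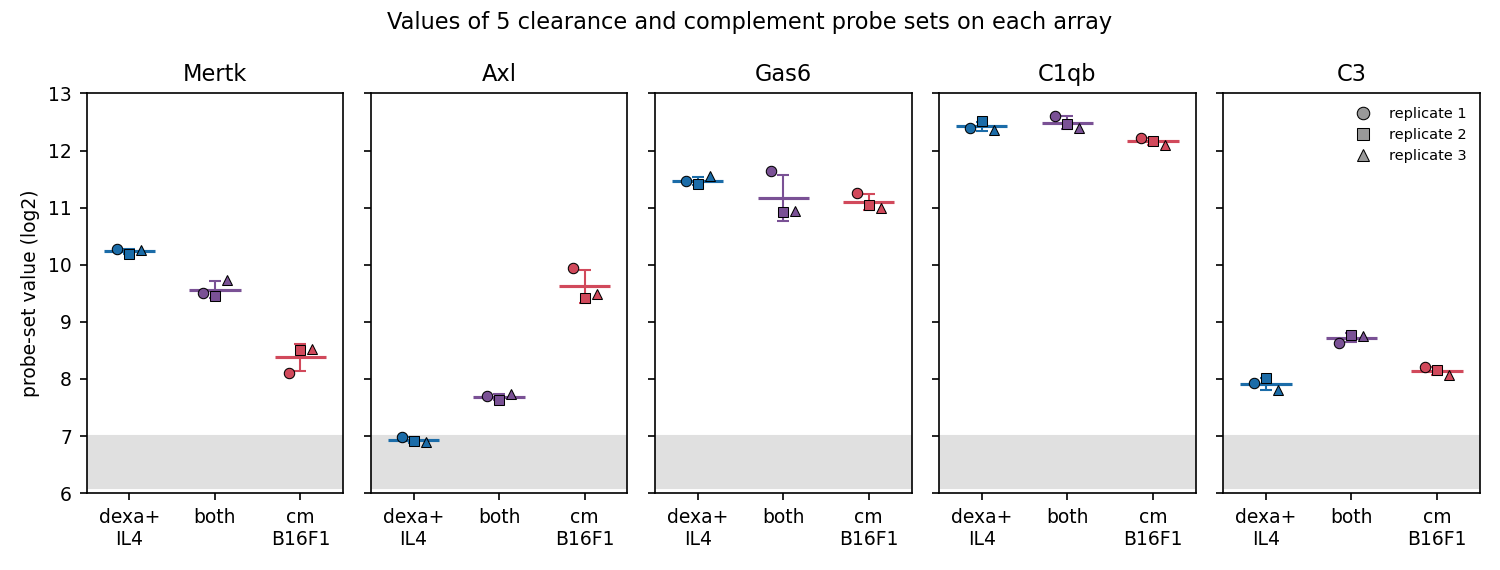
Log2 probe-set value of each member on each array, by group ("both" is the combination); marker shape gives the replicate number, the horizontal line the mean and the bar the SD of 3 arrays, and the grey band the range of the bacterial controls, 6.09 to 7.00. Mertk steps down and Axl steps up from dexa+IL4 through the combination to cmB16F1, Axl lies in the control band in dexa+IL4, and C3 is highest in the combination.

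Mertk and Axl, the receptors, ran in opposite directions across the groups. Mertk was highest in dexa+IL4, intermediate in the combination and lowest in cmB16F1, and Axl had the reverse order. Between the single treatments Mertk was 3.63-fold higher, and Axl at least 6.24-fold lower, in dexa+IL4 than in cmB16F1. For each receptor this was the largest of its 3 differences.

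Mertk read 10.27, 10.19 and 10.26 on the dexa+IL4 arrays. It read 9.51, 9.45 and 9.74 on the combination arrays and 8.10, 8.50 and 8.53 on the cmB16F1 arrays. No array of one group reached into another group, and the narrowest gap, 0.45, lay between the combination and dexa+IL4. The group means were 10.24 ± 0.04, 9.57 ± 0.15 and 8.38 ± 0.24 (SD, n = 3), with the widest spread in cmB16F1.

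Adding conditioned medium to dexamethasone and IL-4 went with lower Mertk, by 0.67 on the log2 scale or 1.59-fold (95% confidence interval of the difference -0.92 to -0.41, limma adjusted p = 0.00297). Adding dexamethasone and IL-4 to conditioned medium went with higher Mertk, by 1.19 or 2.28-fold (interval 0.94 to 1.45, limma adjusted p = 7.43e-05). The single treatments differed by 1.86 (interval 1.61 to 2.12, limma adjusted p = 2.45e-06). All neighbours in the order of the Mertk levels therefore differed past the threshold. By size, the last difference ranked 88 and the others 498 and 168 among the 17810 clusters.

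Axl read 6.99, 6.92 and 6.89 on the dexa+IL4 arrays. It read 7.70, 7.63 and 7.73 on the combination arrays and 9.95, 9.42 and 9.49 on the cmB16F1 arrays. The groups again did not overlap, with gaps of 0.63 and 1.69 between neighbours. All 3 dexa+IL4 values lay at or below the highest bacterial control of their own array, so Axl was not told apart from background in that group. Axl folds against dexa+IL4 are therefore lower bounds, for which each dexa+IL4 array stood at its brightest bacterial control.

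Axl averaged 6.93 ± 0.05 for dexa+IL4, 7.68 ± 0.05 for the combination and 9.62 ± 0.29 for cmB16F1 (SD, n = 3). The combination was at least 1.63-fold higher than dexa+IL4 (measured difference 0.75, interval 0.49 to 1.01, limma adjusted p = 0.00172). It was 3.82-fold lower than cmB16F1 (difference -1.93, interval -2.19 to -1.68, limma adjusted p = 3.26e-06). The single treatments differed by -2.69 as measured (interval -2.94 to -2.43, limma adjusted p = 2.65e-07). By size, the difference between the combination and cmB16F1 ranked 51 of 17810. Every Mertk and Axl call held under all 18 alternative settings. In bulk RNA, fewer cells with a transcript and less transcript per cell cannot be told apart, which applies to all members.

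On a scale that sets the dexa+IL4 mean at 0% and the cmB16F1 mean at 100%, Mertk in the combination stood at 36.0%. Leaving out each array in turn moved this position between 32.9% and 40.6%, and hybridization-control scaling moved it to 48.6%. No such position is given for Axl, whose dexa+IL4 values are not told apart from background.

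**Figure D2:**
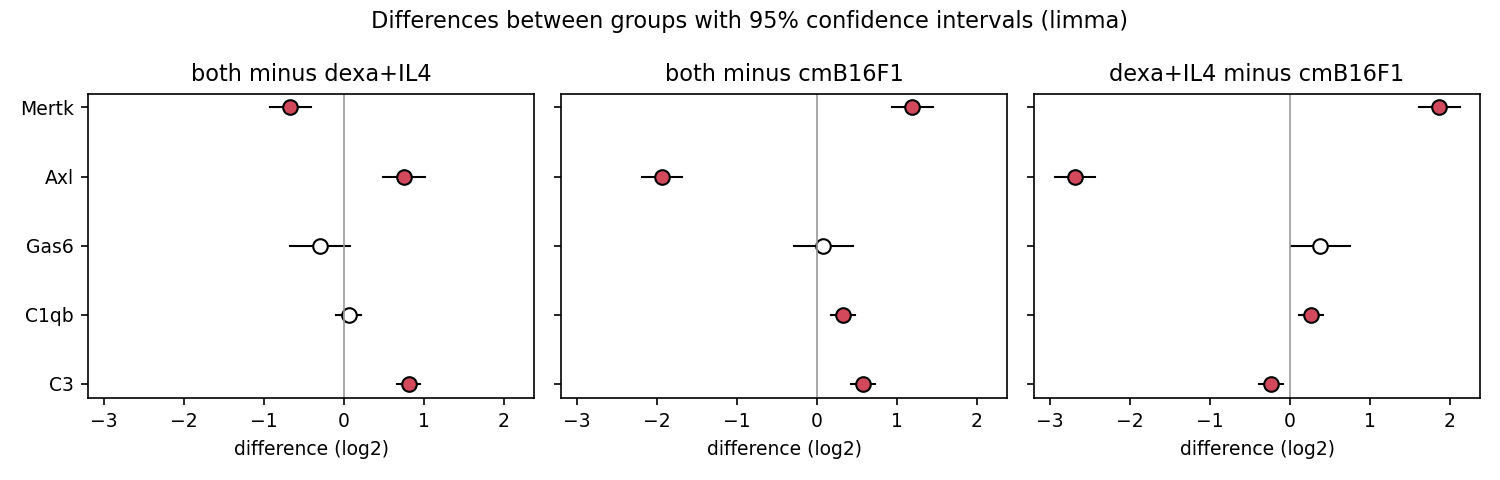
Difference between groups on the log2 scale for each member, with 95% confidence intervals from limma; filled points passed the adjusted threshold of 0.05 and open points did not. Mertk and Axl lie on opposite sides of 0 in every panel, and the Gas6 intervals are the widest.

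Gas6, the ligand of both receptors, read 11.46, 11.41 and 11.55 in dexa+IL4. It read 11.64, 10.93 and 10.95 in the combination and 11.26, 11.04 and 10.99 in cmB16F1. Combination replicate 1 stood above every other array of the series, while the other 2 combination arrays lay below all 3 cmB16F1 arrays. The combination thus overlapped both other groups, and dexa+IL4 lay above cmB16F1 with a gap of 0.15.

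The mean of Gas6 was 11.47 ± 0.07 in dexa+IL4 (SD, n = 3), 11.17 ± 0.40 in the combination and 11.09 ± 0.14 in cmB16F1. No Gas6 comparison passed the test, so no neighbours in this order differed beyond their spread. The combination differed from dexa+IL4 by -0.30 (interval -0.67 to 0.07, limma adjusted p = 0.259) and from cmB16F1 by 0.08 (interval -0.29 to 0.45, limma adjusted p = 0.826). Dexa+IL4 differed from cmB16F1 by 0.38 (interval 0.01 to 0.75, limma adjusted p = 0.127). The first of these intervals reaches -0.67, the size of the Mertk difference in that comparison.

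The Gas6 results turned on combination replicate 1. Without it the combination was 0.53 lower than dexa+IL4 and passed (limma adjusted p = 0.00434), and the difference from cmB16F1 turned to -0.15. The comparison of the single treatments then passed as well, at 0.38 (limma adjusted p = 0.00672), with a standard error of 0.0769 in place of 0.165. It also passed with only the arrays of these 2 groups in the model (limma adjusted p = 0.0106), with array weights (0.0493) and with hybridization-control scaling (0.0267), and the range over 18 settings was 0.00672 to 0.277. With that scaling the combination was 0.56 below dexa+IL4 and passed (limma adjusted p = 0.00115).

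Arrays numbered 1 carried the highest Gas6 value of both groups that received conditioned medium, 0.46 above the mean in the combination and 0.16 above it in cmB16F1. In those arrays the 3' minus 5' difference of the Gapdh control sets, a measure of how complete the labelled RNA was, stood at 0.24 and 0.19, against 0.50 to 0.59 in the other 4 arrays with conditioned medium. The same difference of the beta-actin sets was 0.95 and 0.73, against 1.02 to 1.39. In dexa+IL4 the Gapdh difference was 0.26, 0.26 and 0.40. The part of these measures in the Gas6 values was not tested.

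Of the complement members, C1qb was lowest in cmB16F1 and C3 was highest in the combination. C1qb was 1.25-fold lower in cmB16F1 than in the combination and 1.20-fold lower than in dexa+IL4. C3 was 1.75-fold higher in the combination than in dexa+IL4 and 1.49-fold higher than in cmB16F1.

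C1qb read 12.40, 12.51 and 12.36 in dexa+IL4. It read 12.61, 12.46 and 12.39 in the combination and 12.22, 12.17 and 12.09 in cmB16F1. All 3 cmB16F1 arrays lay below the other 6, and the arrays of dexa+IL4 and the combination overlapped. The means were 12.42 ± 0.08, 12.48 ± 0.11 and 12.16 ± 0.07 (SD, n = 3), all below the top of the scale.

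The combination exceeded cmB16F1 in C1qb by 0.32 (interval 0.17 to 0.48, limma adjusted p = 0.0109), and dexa+IL4 did so by 0.26 (interval 0.11 to 0.42, limma adjusted p = 0.0194). The combination and dexa+IL4, neighbours in the order, differed by 0.06 (interval -0.10 to 0.21, limma adjusted p = 0.634). Neither call held with hybridization-control scaling, at 0.11 (limma adjusted p = 0.435) and 0.31 (0.119). The standard error of these differences was 0.128 with that scaling, against 0.0695, and the second difference was not smaller. The call between the single treatments also failed when dexa+IL4 replicate 1, dexa+IL4 replicate 2, cmB16F1 replicate 2 or cmB16F1 replicate 3 was left out, with limma adjusted p from 0.00342 to 0.119 over 18 settings.

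C3 read 7.93, 8.01 and 7.80 in dexa+IL4. It read 8.63, 8.77 and 8.76 in the combination and 8.21, 8.16 and 8.07 in cmB16F1. All 3 combination arrays lay above the other 6, by at least 0.42, while the gap between the single treatments was 0.06. The means were 7.92 ± 0.10, 8.72 ± 0.08 and 8.15 ± 0.07 (SD, n = 3), above the bacterial controls in every group.

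The combination exceeded dexa+IL4 in C3 by 0.81 (interval 0.66 to 0.95, limma adjusted p = 5.70e-05), and this call held under all 18 settings. It exceeded cmB16F1 by 0.57 (interval 0.43 to 0.72, limma adjusted p = 2.42e-04). That call failed with hybridization-control scaling, at 0.36 (limma adjusted p = 0.0695), and held under the other 17. The brightness of those controls moved with the combination, as given above, and its part in the C3 and C1qb differences was not tested. These comparisons share the combination arrays.

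C3 was lower in dexa+IL4 than in cmB16F1 by 0.23 on the log2 scale (interval -0.38 to -0.09, limma adjusted p = 0.0271). The call failed with hybridization-control scaling (limma adjusted p = 0.654) and when dexa+IL4 replicate 1, dexa+IL4 replicate 3, cmB16F1 replicate 1 or cmB16F1 replicate 2 was left out, with a range from 0.0155 to 0.654. C3 in the combination therefore lay outside the span of the single treatments, whereas Mertk and Axl lay inside it.

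**Figure D3:**
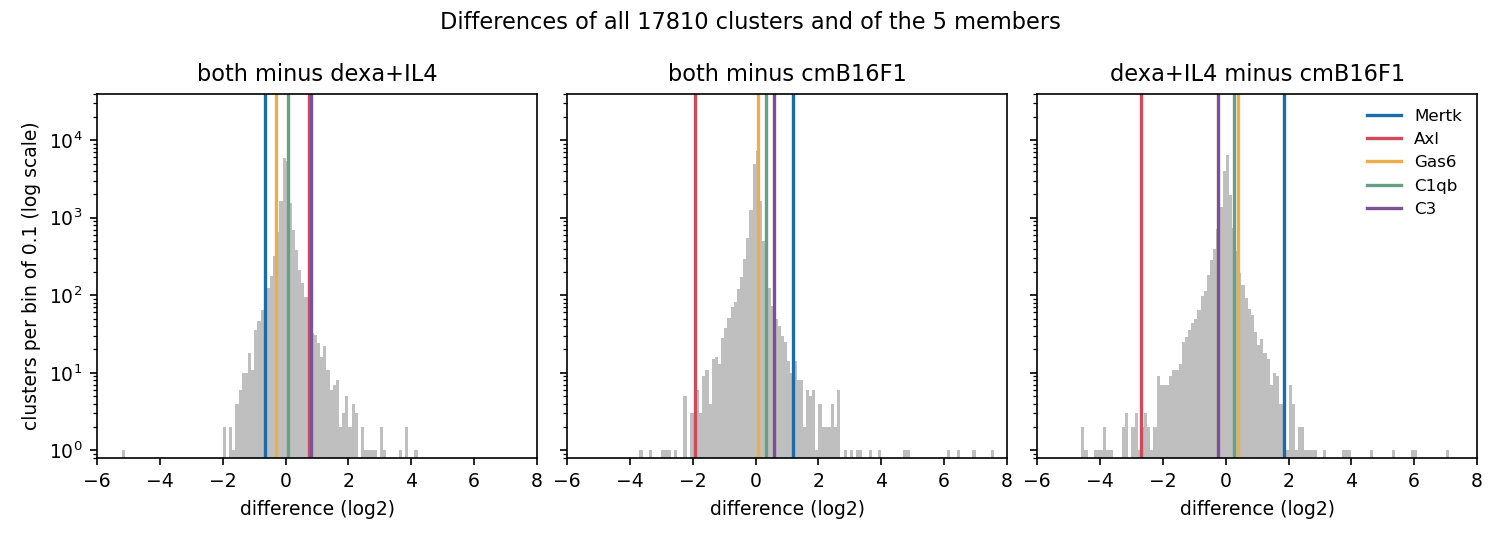
Number of clusters per 0.1 of log2 difference (grey bars, log axis) for all 17810 clusters in each comparison, with the difference of each member as a coloured line. Axl and Mertk lie in the tails when cmB16F1 is compared with either other group, at -1.93 and 1.19 and at -2.69 and 1.86, while C1qb at 0.06 in the first panel and Gas6 at 0.08 in the second lie near the centre.

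For the combination against dexa+IL4, 3 of the 5 members passed the test, where 17.9% of all clusters did. All clusters include dim ones, while each of the 5 members averaged above the bacterial controls over the 9 arrays. Axl did so only through the groups with conditioned medium, since its dexa+IL4 mean was 6.93. With dim sets left out Mertk and C3 passed, where 30.8% of 10768 clusters did. Axl passed too, but is not set against that share, since the filter kept it through the groups where it was high. Axl and C3 rose, as 8.88% of all clusters did, Mertk fell, as 9% did, and Gas6 and C1qb did not pass. None of the 5 had a measured change of at least 2-fold, and 1.03% of all clusters passed with such a change. The median size of the members' differences was 0.67 against 0.07 over all clusters, dim ones included. No value without dim sets was computed for this size, the 2-fold share or the share without overlap, in any comparison. The groups did not overlap in the same 3 members, and in 36.1% of all clusters.

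For the combination against cmB16F1, 4 of the 5 members passed, where 14.1% of all clusters did. With dim sets left out 4 members passed, where 23.3% of 10768 clusters did. Mertk, C1qb and C3 rose, as 6.56% of all clusters did, Axl fell, as 7.57% did, and Gas6 did not pass. The median size was 0.57 against 0.06 over all clusters, dim ones included. Mertk and Axl passed with a change of at least 2-fold, which 1.28% of all clusters did. The 4 members that passed had groups without overlap, where 28.5% of all clusters did.

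Same-numbered arrays of these groups deviated together across clusters, so their differences are also given by number. The combination exceeded cmB16F1 in Mertk by 1.41, 0.96 and 1.21 on the log2 scale for numbers 1, 2 and 3. The Axl differences were -2.25, -1.79 and -1.76. Those of C3 were 0.42, 0.61 and 0.69, and those of C1qb were 0.38, 0.29 and 0.30. Gas6 differed by 0.38, -0.10 and -0.04, so that it was the only member whose pairs differed in sign here.

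For dexa+IL4 against cmB16F1, 4 of the 5 members passed, where 25% of all clusters did. With dim sets left out Mertk, C1qb and C3 passed, where 39.6% of 10768 clusters did. Axl passed too, but is again not set against that share, since the filter kept it through the groups where it was high. Mertk and C1qb were higher in dexa+IL4, as 12.8% of all clusters were, Axl and C3 were lower, as 12.2% were, and Gas6 did not pass. The median size was 0.38 against 0.08 over all clusters, dim ones included. All 5 members had groups without overlap, and 44.3% of all clusters did. Mertk and Axl passed with a difference of at least 2-fold, as did 2.14% of all clusters. Conditioned medium and dexamethasone with IL-4 differ in every agent, so this comparison assigns no difference to one of them. No group used here received dexamethasone or IL-4 without the other, so no comparison separates these agents.

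**Figure D4:**
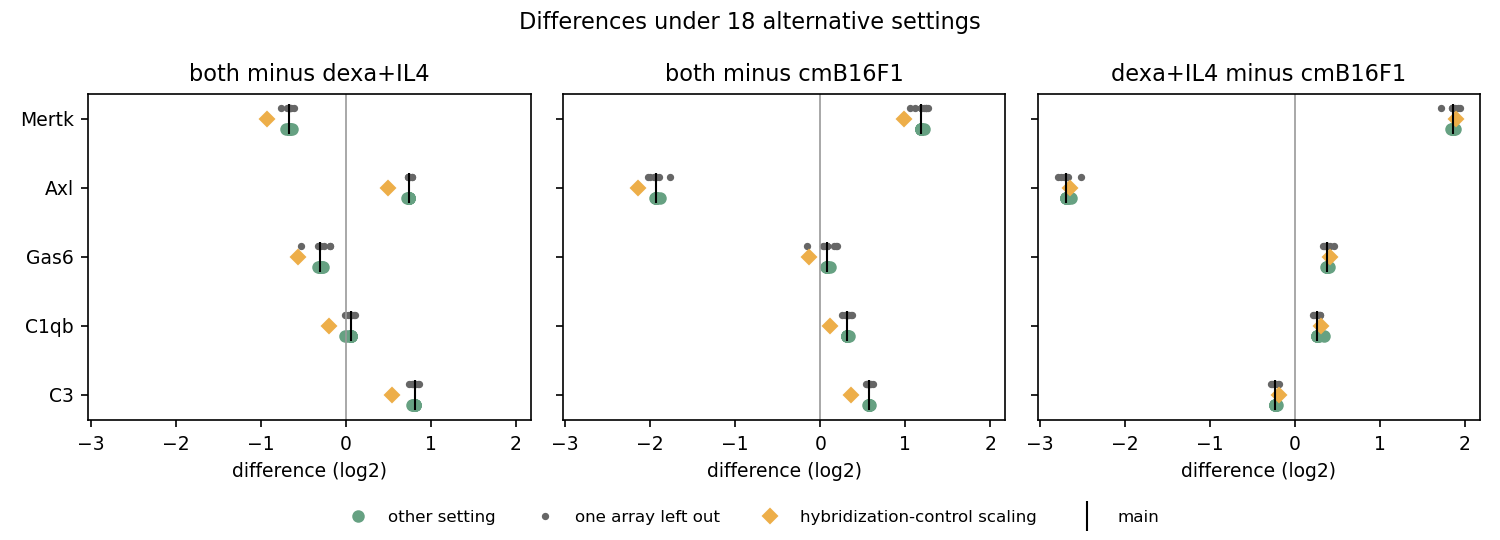
Log2 difference of each member in each comparison under the main setting (black bar) and 18 alternatives: 9 that leave out one array (grey), hybridization-control scaling (diamond) and other settings (green). That scaling moves the combination downward against both groups, while Mertk, Axl and C3 keep their side of 0 in all settings. C1qb crosses 0 in the first panel and Gas6 in the second.

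Likeness of pattern was measured as the root mean square difference of values centred on their own mean over the 9 arrays, with smaller values more alike. Among the members Gas6 and C1qb were nearest, at 0.22, and Mertk and Axl were farthest apart, at 1.92. The 0.22 lay above 0.185, the median between C1qb and the other clusters described next, so it marks no particular likeness. By this measure, members that differ little between groups lie near each other. Of 10763 other clusters whose mean lay above the bacterial controls, Mm.328206 was nearest to Mertk, at 0.11, against a median of 0.779. It averaged 9.86 for dexa+IL4, 9.09 for the combination and 7.84 for cmB16F1. The next was Mm.334413, at 0.137. A nearest cluster lies below the median by construction, so the medians here give only the scale. Nearest to C1qb were Mm.28839 and Mm.298875, at 0.0422 and 0.0424, against a median of 0.185. These clusters are unnamed in the files.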

How the data were processed

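The authors deposited one table of log2 probe-set values for 9 one-colour Affymetrix arrays. Their array medians, 7.20 to 7.25, are nearly equal, as after normalization. No header states the log2 scale, which was inferred from the range of values, and biotin labelling by the array maker's protocol is per the labels' protocols. How they did the background correction, normalization and summary, and with which chip definition, is not given in the sources used here. Of 17931 sets, the brighter of a plus and a minus set was kept for each cluster, which left 17810 clusters, tested with 19 mouse control sets.

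Groups were taken from the sample titles. Tests used limma 3.58.1 with R 4.3.3 (lmFit, eBayes with a mean-variance trend, group as the only term, 6 residual degrees of freedom), Benjamini-Hochberg over 17829 features, threshold 0.05, with no filter on dim sets. The procedure was also run on simulated data whose noise was independent between arrays, unlike the same-numbered arrays described below. That run does not show how the tests behave on correlated arrays. The depth of an array is not a count, and 3 arrays a group limit the precision. Members, tests and alternatives were chosen with earlier results of these data known. All members found were named. The clusters most like them in pattern were to be the 2 nearest to the mean of the 3 C1q chains, here C1qb alone since the others had no row, and the 2 nearest to Mertk. Comparing the C1q chains with each other was therefore not run. Figures were drawn with matplotlib 3.10.9.

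The labels number arrays 1 to 3 in each group without saying what a number shares. Deviations from the group means, correlated across clusters, gave 0.617, 0.565 and 0.662 for same-numbered arrays of the combination and cmB16F1. Each value exceeded the limit of 0.1, so differences by number are listed for this comparison. Its main tests were still unpaired, and the replicate number entered a model only in the alternative setting with a block. Same-numbered arrays gave 0.224, -0.067 and 0.116 for the combination and dexa+IL4, and 0.236, -0.023 and 0.167 for the single treatments. For these comparisons no differences by number are listed.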

Additional observations from a re-analysis of the deposited data

How the results depend on the processing

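The 15 differences (5 members in 3 comparisons) were recomputed under 18 alternatives, 9 of which left out one array, giving 270 values. Of these, 247 kept their direction and their side of the threshold, 12 kept the direction but no longer passed, 6 newly passed and 5 changed sign. Direction and side of the threshold never changed in 7 of the 15 differences. These were all 6 of Mertk and Axl, and C3 between the combination and dexa+IL4. Their sizes did move. With scaling to the hybridization controls, Mertk in the combination minus cmB16F1 was 0.98 in place of 1.19, under 2-fold. In the combination minus dexa+IL4 that scaling gave -0.93 for Mertk in place of -0.67. There it gave 0.50 for Axl in place of 0.75, and 0.55 for C3 in place of 0.81. No changed sign concerned a difference that had passed. C1qb in the combination minus dexa+IL4 was -0.0045 with quantile normalization, -0.20 with scaling to the hybridization controls, and between -0.0023 and 0.11 when one array was left out. Gas6 in the combination minus cmB16F1 was -0.13 with that scaling and between -0.15 and 0.20 when one array was left out. With that scaling 2 members passed against cmB16F1 in place of 4, while 7104 clusters (39.9%) passed in the combination against dexa+IL4, of which 5.3% were higher in place of 49.7%. For the combination against cmB16F1 the share higher among those called was 11.7% in place of 46.4%. Between the single treatments the count of members passing ran from 2 to 5 when one array was left out, and was 2 without dexa+IL4 replicate 1 or cmB16F1 replicate 2. With median centring 38.2% of the clusters called between the combination and dexa+IL4 were higher. The share of all clusters called there was 11.5% and 11.8% without dexa+IL4 replicate 1 and 3, against 17.9%, and between the single treatments it was 10.6% with hybridization-control scaling, against 25%. With dim sets left out it was 30.8%, 23.3% and 39.6% of 10768 clusters in the 3 comparisons. Some settings leave fewer clusters or arrays, and the cause of these changes was not tested. With the replicate number as a block, 3, 4 and 4 members passed in the 3 comparisons, as without it, and the block changed no call of a member.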
